A study of Homo sapiens with 16 samples.

Results

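AP-1 genes and their companion immediate early genes were followed across RNA-seq of KG-1, an established human acute myeloid leukemia (AML) line of suspension myeloblast-like cells. The 10 genes were the FOS family (FOS, FOSB, FOSL1, FOSL2), the JUN family (JUN, JUNB, JUND), ATF3, EGR1 and IER2, out of 43836 genes in the count table. They were selected on a measured value, since FOSB stood far higher after MK-2206 than in vehicle, and each symbol was matched to its Ensembl gene in GENCODE release 44. The study asked how the transcription factor FOXM1 and the kinase AKT act on each other in AML cells, and 16 libraries covered 8 conditions with 2 biological replicates each. All cells carried a lentiviral vector and had been selected with 4 μg/mL puromycin. Control cells carried a non-target shRNA (pLKO.1-puro Non-Target) and received 0.3% DMSO for 48 h, STL427944 at 50 μM for 48 h, cytarabine (AraC) at 0.75 μM for 48 h, venetoclax at 100 nM for 48 h, or MK-2206 at 30 μM for 24 h. FOXM1-KD cells carried an shRNA against FOXM1 and received DMSO, AraC or venetoclax at those same doses for 48 h. MK-2206 is an allosteric AKT inhibitor, AraC a nucleoside analogue that disturbs DNA synthesis, venetoclax an inhibitor of the survival protein BCL2 and STL427944 a compound described as a FOXM1 suppressor. The MK-2206 libraries differ from their DMSO controls in treatment time as well as in drug, and those cannot be told apart.

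AP-1 is a dimer of basic leucine zipper proteins. JUN proteins pair with themselves or with FOS proteins, FOS proteins need a JUN partner, and the dimer binds the TPA response element or the related cAMP response element of its target genes. Many AP-1 genes are immediate early genes: growth factors, stress kinases and DNA damage turn them on within minutes through proteins that are already present, and their unstable transcripts usually decay soon after. FOS and FOSB carry strong activation domains, while FOSL1 and FOSL2 lack the same activation domain and tend to stay on longer. JUN is induced by the stress kinase JNK and by its own product, JUNB is a weaker activator, and JUND is present at a fairly steady level in many cells. ATF3 is a stress-induced relative that binds as a homodimer or with JUN proteins. EGR1 is a zinc finger factor switched on by serum response factor and its ETS partners, and IER2 is a small nuclear protein of the same early wave. In myeloid cells AP-1 and EGR1 are known for their part in monocytic differentiation.

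The sequences just before the start sites of 5 of these genes are shown: FOSB, FOS, JUN and EGR1, which had the largest differences with MK-2206, and JUNB, which was called higher in FOXM1-KD cells in all 3 treatments. Each run is 150 bases of RefSeq sequence (GRCh38.p14), 5′ to 3′ on the gene's strand and ending at the base before the start site. Capitals mark TGACG on either strand (the core of a cAMP response element, read as CGTCA on the other strand), the TATA box TATAAA and the CArG box of serum response factor.
FOSB, chr19:45467846-45467995, plus strand: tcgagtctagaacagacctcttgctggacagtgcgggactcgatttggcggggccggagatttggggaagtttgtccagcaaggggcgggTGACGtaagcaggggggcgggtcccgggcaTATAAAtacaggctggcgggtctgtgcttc
FOS, chr14:75278678-75278827, plus strand: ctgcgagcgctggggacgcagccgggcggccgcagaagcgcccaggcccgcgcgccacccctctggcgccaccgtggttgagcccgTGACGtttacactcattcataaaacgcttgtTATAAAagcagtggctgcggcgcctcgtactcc
JUN, chr1:58784048-58784197, minus strand: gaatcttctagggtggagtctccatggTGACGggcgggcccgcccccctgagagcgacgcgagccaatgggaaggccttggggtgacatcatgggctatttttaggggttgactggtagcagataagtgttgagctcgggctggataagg
JUNB, chr19:12791336-12791485, plus strand: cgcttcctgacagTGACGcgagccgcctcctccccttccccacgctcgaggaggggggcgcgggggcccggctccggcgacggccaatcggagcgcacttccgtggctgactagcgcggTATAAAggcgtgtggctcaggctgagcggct
EGR1, chr5:138465329-138465478, plus strand: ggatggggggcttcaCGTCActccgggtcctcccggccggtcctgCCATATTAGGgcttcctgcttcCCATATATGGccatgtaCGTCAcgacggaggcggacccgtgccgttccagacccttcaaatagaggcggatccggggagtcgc

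Motifs were searched on both strands in RefSeq windows from 250 bases before to 50 bases after the start site, which exist for 9 of the 10 genes (FOSL1 has no entry, and ATF3 has 2 windows). TGACG was found in 8 of the 9 genes, all but ATF3, and in 24.6% of all 35116 promoter windows. For ATF3 this covers its 2 windows only, and any other start site of the gene was not searched. In FOSB it began 60 bases and in FOS 64 bases before the start site. The full cAMP response element TGACGTCA, which contains TGACG, was found in JUND only and in 1.85% of windows. TGANTCA, the TPA response element, was found in FOSL2 only and in 7.71% of windows. The CArG box, held by 1.29% of windows, was found in EGR1 only, at 2 places. TATAAA was found in FOS, FOSB, JUNB and the second window of ATF3, and in 11.5% of windows. It began 33, 30 and 31 bases before the start site in FOS, FOSB and JUNB. In ATF3 it began 230 bases before it, not where the others have theirs, and that window lies inside the annotated gene. GCGNGGGCG, the site of EGR proteins, was found in EGR1 only and in 9.43% of windows. These matches describe letters in a window, and no binding was measured. Only exact patterns were counted: the JUN run above holds TGACATCA, a near match to TGACGTCA that was not. Sequence further than 250 bases before the start site was not searched. A gene without a match may thus still hold a variant of the element, or a copy outside its window.

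The libraries held 7351755 to 21362546 counts, the lowest 2 being those of MK-2206, and mitochondrial genes took 6.68% and 18.37% of counts in these 2 libraries against 1.32% to 3.05% in the others. Control venetoclax 1 was more like STL427944 2 (r = 0.9898 across 13978 genes) than like its own replicate (0.9655), while venetoclax 2 and STL427944 1 were more like vehicle libraries or each other. FOXM1, the targeted gene, had 923 and 1551 counts in FOXM1-KD against 2554 and 2515 in control cells with DMSO, 2057 and 2161 against 3497 and 3284 with AraC, and 740 and 955 against 1883 and 2599 with venetoclax. Its fitted log2 differences were -1.08, -0.56 and -1.20 in that order, so that with AraC the knockdown fell short of 2-fold. CD34, the progenitor marker that defines KG-1, had 12483 to 28951 counts in the control libraries other than MK-2206, 0 to 4 in the 6 FOXM1-KD libraries and 7 and 18 with MK-2206. MPO, a granule protein of the myeloid lineage, had 5 to 242 counts in the former, 28881 to 155753 in FOXM1-KD cells and 3888 and 3424 with MK-2206. Of the other KG-1 markers, PTPRC (339 to 7854 counts), ANPEP (83 to 3545) and HLA-DRA (344 to 16877) were present in all 16 libraries. With DMSO, HLA-DRA was at 143 and 134 CPM in FOXM1-KD cells against 879.5 and 819 CPM in control cells. CD3E, a T cell marker, did not exceed 1 count in FOXM1-KD cells against 7 to 176 in control cells outside MK-2206. The 6 markers of myeloid differentiation were MPO, LYZ, CD14, ITGAM, CSF1R and CD68. Their summed CPM was 29.1 to 239 in control libraries outside MK-2206, 3093 to 11790.0 in FOXM1-KD cells, and 414 and 573 with MK-2206. The highest of these sums, in FOXM1-KD venetoclax 1, was nearly all MPO and LYZ, at 10640 and 1142 CPM. MPO alone held most of both MK-2206 sums, at 555 and 396 CPM. LYZ was at 9.71 CPM in MK-2206 1, against 17.9 and 15.2 CPM in control cells with DMSO. The sums thus say little of CD14, ITGAM, CSF1R and CD68. In control venetoclax 1, MPO and LYZ were at 0.3216 and 6.175 CPM while no control sum was below 29.1, so those other genes held most of its sum. A higher sum is therefore not a higher level of all 6 markers. The sum of the 4 KG-1 markers was 1841 to 2621, 353 to 787.5, and 110.4 and 202 CPM in the same order. The marker differences run with every comparison of FOXM1-KD with control cells and with that of MK-2206, and their part in the results was not tested. A difference in clone or line identity between the FOXM1-KD and control populations cannot be told apart from the knockdown, so each FOXM1-KD difference given here is one between these populations. In bulk RNA, fewer cells of a type and less RNA per cell cannot be told apart.

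All 10 genes were highest with MK-2206 (the plot of levels by condition). In each of them both MK-2206 libraries lay above all other 14 libraries, and in 9 of them the next condition was a FOXM1-KD condition, with JUND as the exception. Levels are given as CPM, counts scaled to a TMM-adjusted library total of 1000000. Summed over the 10 genes, CPM came to 363 and 317 in control cells with DMSO, 313 and 499.5 with STL427944, 651 and 283.5 with venetoclax, 568 and 481 with AraC, and 11520 and 7364 with MK-2206. In FOXM1-KD cells the sum was 657 and 453 with DMSO, 859.5 and 688 with venetoclax, and 1190 and 971.5 with AraC. The FOXM1-KD libraries with AraC or venetoclax all lay above the 8 control libraries outside MK-2206. Over the 8 condition means of log2 CPM, the 45 pairs of genes correlated with a median r of 0.914, from 0.76 for FOS and JUND to 0.988 for FOS and JUN, a description in which MK-2206 is 1 far point for all pairs.

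**Figure D1:**
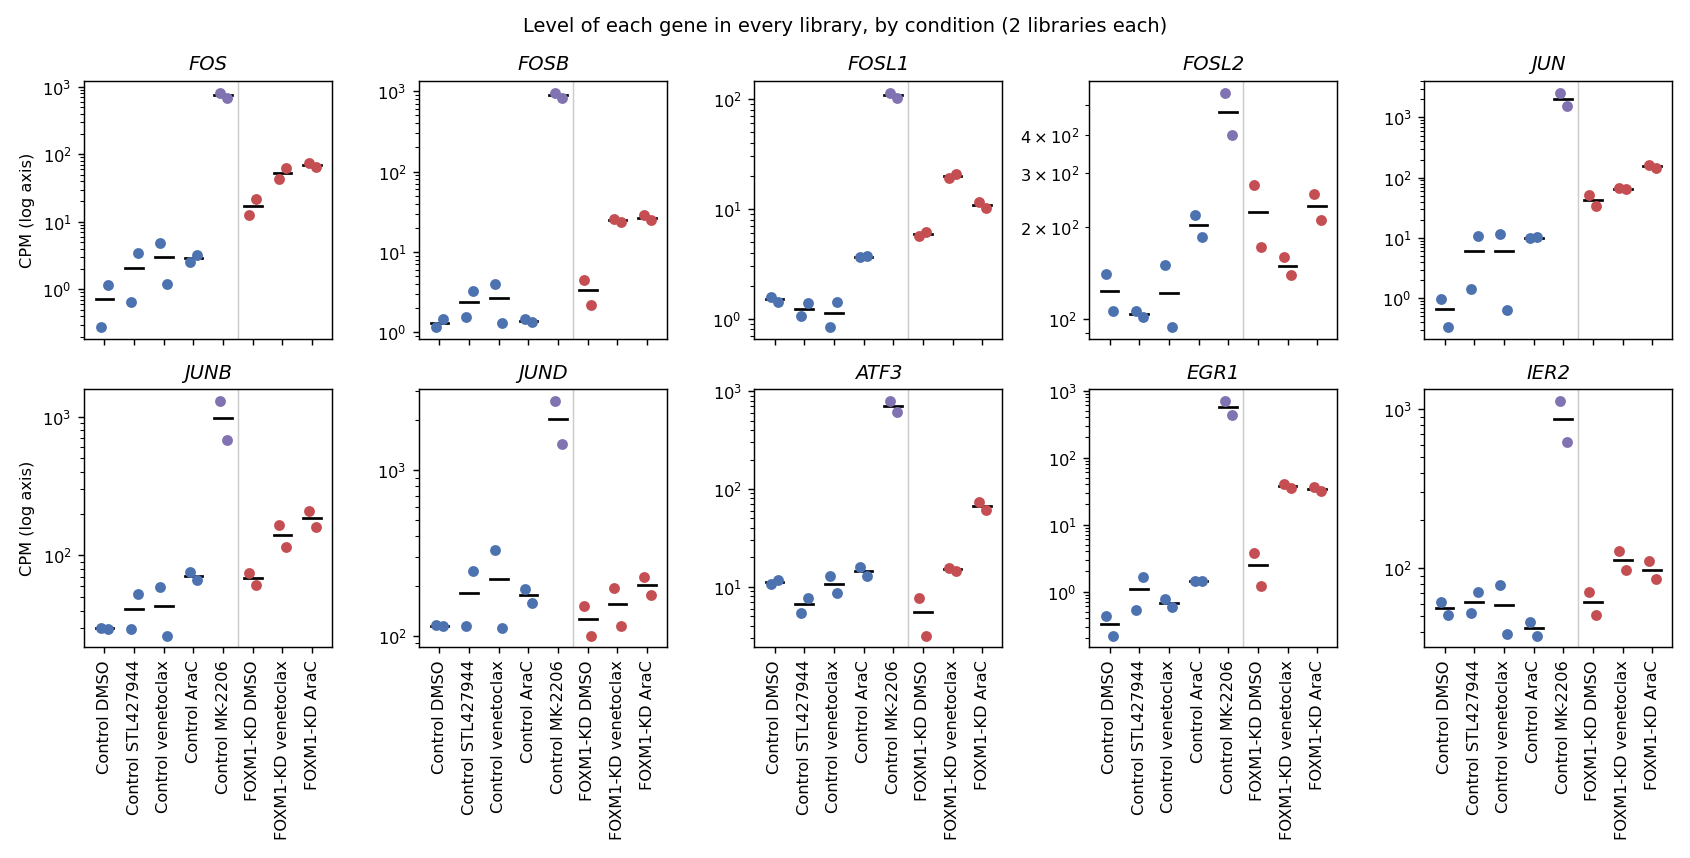
CPM of each gene on a log axis (each panel has its own range) in every library, grouped by condition, with points for the 2 libraries and a line for their mean; blue marks control cells, purple control cells with MK-2206 and red FOXM1-KD cells. MK-2206 is the highest condition for all 10 genes, at 891 CPM for FOSB and 2060 CPM for JUN (means).

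FOSB in control cells with MK-2206 reached 955 and 827 CPM (6685 and 7159 counts), against 1.15 and 1.48 CPM (21 and 27 counts) with DMSO. This is the contrast on which the genes were selected, so it is given as a description without a test. The fitted log2 differences of MK-2206 from DMSO were 9.46 for FOSB, 10.09 for FOS, 6.22 for FOSL1 and 2.01 for FOSL2. The JUN family stood at 11.66 for JUN, 5.11 for JUNB and 4.21 for JUND, and the others at 6.03 for ATF3, 10.77 for EGR1 and 4.02 for IER2. All 10 genes were thus at least 2-fold higher, with a median of 6.12, where 50.5% of the 28905 genes fitted were that much higher and the median of all genes was itself 1.03. That background moved with the settings: the median of all genes was 0.82 with scaling to total counts alone, 0.50 with a prior count of 2, 0.15 without the second MK-2206 library and 0.08 with a filter on low counts, which left 5414 of 15634 genes at least 2-fold higher. JUN, the gene with the largest difference, had 17957 and 13451 counts with MK-2206 against 18 and 6 with DMSO.

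Per kilobase of exon, the make-up of both families differed between conditions. FOSL2 made up 93.0% ± 2.17 (SD, n = 2) of the FOS family's CPM per kb in control cells with DMSO, and 12.65% ± 1.32 with MK-2206. There FOS held 45.4% ± 0.226 and FOSB 30.9% ± 0.601. FOXM1-KD cells lay between, with FOSL2 at 76.25% ± 9.55 with DMSO, 50.0% ± 0.898 with AraC and 39.9% ± 5.81 with venetoclax. In the JUN family, JUND made up 78.4% ± 0.0636 in control cells with DMSO and 48.6% ± 0.460 with MK-2206. JUN itself stood at 0.238% ± 0.167 and 26.6% ± 1.58 in these conditions and held 17.3% ± 1.88 in FOXM1-KD cells with AraC. FOSL2 and JUND thus held most of each family in control cells outside MK-2206, where FOSL2 did not fall below a mean of 89.45% and JUND not below 68.4%.

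**Figure D2:**
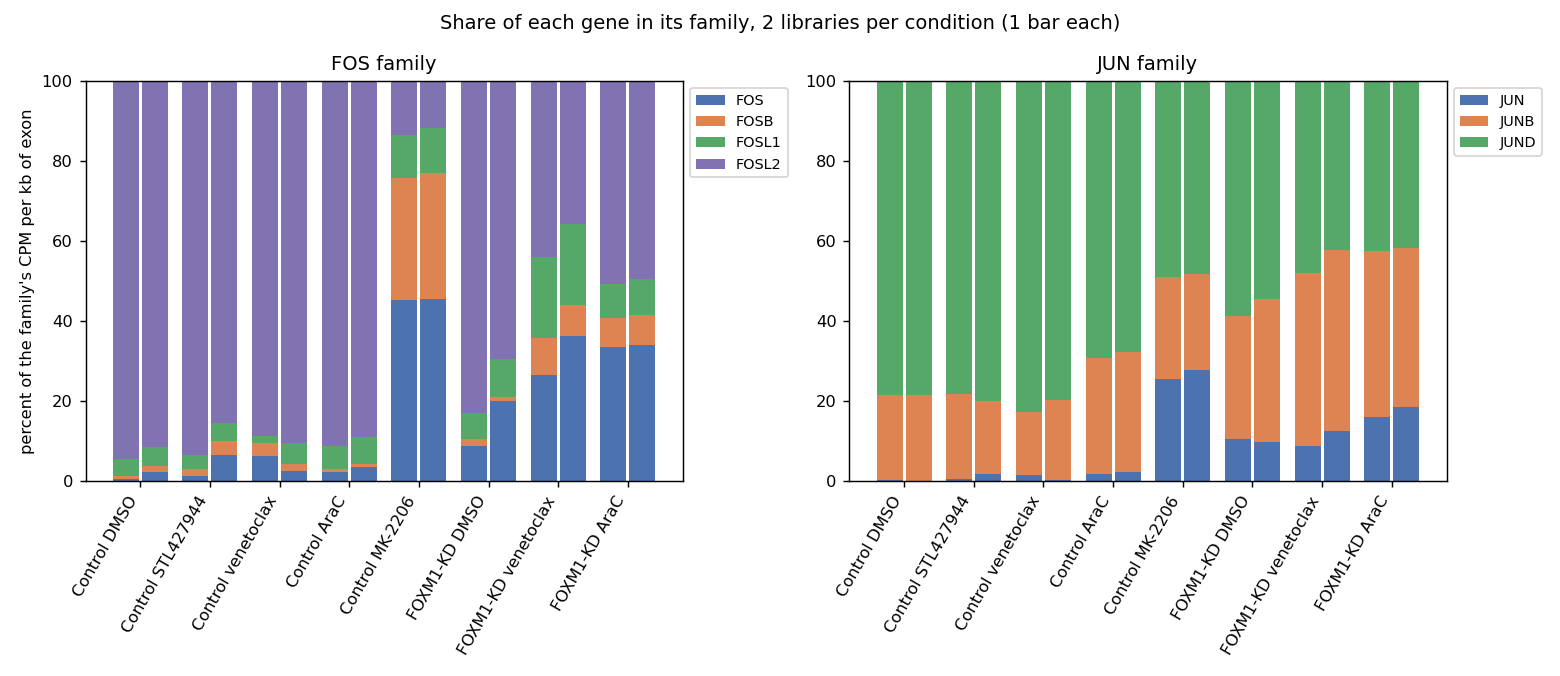
Share of each gene in the summed CPM per kb of exon of its family, in percent, 1 bar per library and 2 per condition; left the FOS family, right the JUN family. FOSL2 fills most of the FOS bars in control cells except with MK-2206, where FOS and FOSB hold 45.4% and 30.9% on average.

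FOXM1-KD cells were compared with control cells within each treatment. A gene is called where it changed at least 2-fold with an adjusted p below 0.1 by edgeR's quasi-likelihood test (Benjamini-Hochberg over all genes tested), and log2 differences carry their standard error (SE). With DMSO, 5 of the 10 genes were called higher and 0 lower, where 11.3% of the 23274 genes tested were called higher, and the median log2 difference was 1.27 against -0.03 over all genes. With AraC, 8 were called higher and 0 lower (15.2% of 24653 genes higher), with a median of 1.85 against 0.08. With venetoclax, 6 were called higher and 0 lower (10.8% of 24947 genes higher), with a median of 2.47 against 0.11. FOS, FOSL1, JUN, JUNB and EGR1 were called higher in all 3 treatments, which share no library. FOSL2 and JUND were called in none. The shares of members called all exceeded the background, although the genes were not chosen independently of these data and no test of the list was made.

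**Figure D3:**
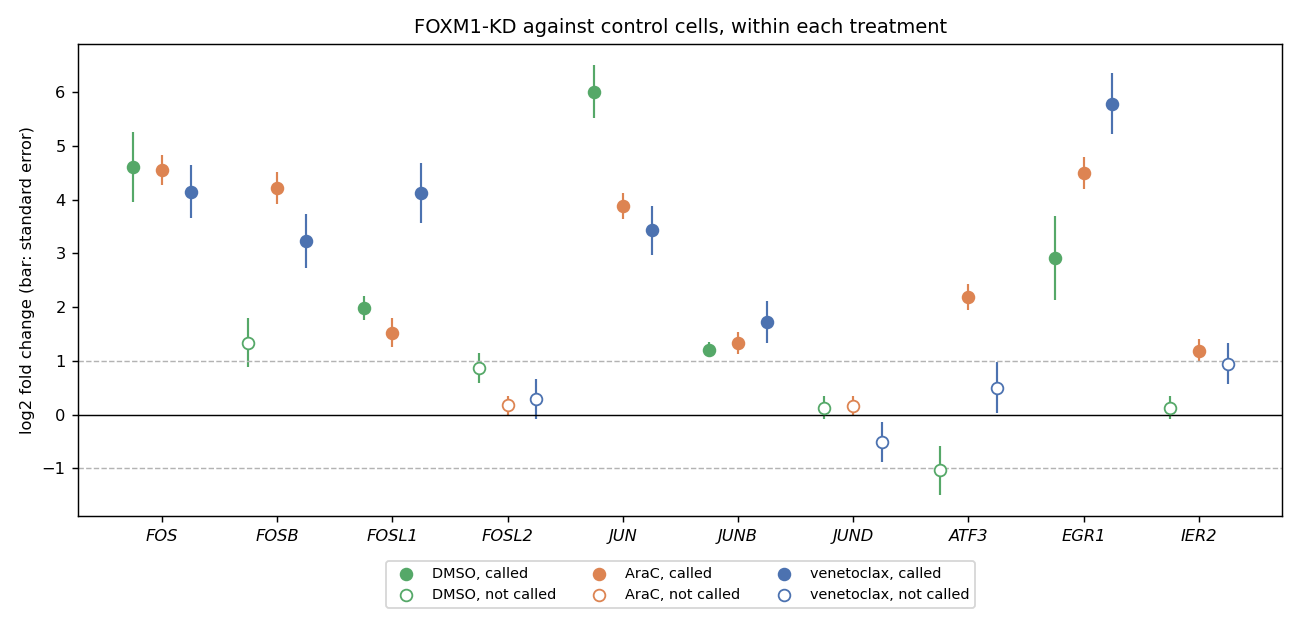
Log2 fold change of FOXM1-KD against control cells for each gene, with standard error bars, in DMSO (green), AraC (orange) and venetoclax (blue), 2 libraries per group; filled points were called and dashed lines mark a 2-fold change. FOS stands at 4.61, 4.56 and 4.15, while JUND lies between -0.51 and 0.16.

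FOS, the founding partner of JUN in AP-1, had few counts in control cells: 0.274 and 1.15 CPM (5 and 21 counts) with DMSO, against 12.8 and 21.9 CPM (242 and 416 counts) in FOXM1-KD cells. The difference was 4.61 ± 0.65 (log2, SE; adjusted p = 0.012). With AraC, FOS was at 2.53 and 3.23 CPM in control and 75.4 and 64.85 CPM in FOXM1-KD cells, 4.56 ± 0.28 apart (adjusted p = 2.01e-58). With venetoclax it was at 4.82 and 1.22 CPM against 42.7 and 63.1 CPM, 4.15 ± 0.49 apart (adjusted p = 4.28e-16). In none of the 3 treatments did the libraries of the populations overlap.

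FOSB, which like FOS activates strongly and is known for a stable truncated form, was called with either drug but not with DMSO. With DMSO it was at 4.50 and 2.16 CPM in FOXM1-KD cells against 1.15 and 1.48 in control cells. The groups did not overlap, but the difference of 1.34 ± 0.45 was not called (adjusted p = 0.104). It was called at 1.33 to 1.35 by DESeq2, with total-count scaling, with a filter on low counts and in a fit of all 16 libraries. With AraC, FOSB was at 28.5 and 24.85 CPM in FOXM1-KD cells and 1.45 and 1.33 CPM in control cells, 4.22 ± 0.30 apart (adjusted p = 7.68e-44). With venetoclax it was at 25.9 and 23.3 CPM against 3.99 and 1.32 CPM, 3.23 ± 0.51 apart (adjusted p = 4.15e-09). Read in order of its means, FOSB was highest with MK-2206 (891 ± 90.1 CPM, SD), then in FOXM1-KD cells with AraC (26.7 ± 2.57) and venetoclax (24.6 ± 1.85), whose libraries overlap, and all other conditions were at means of 1.32 to 3.33 CPM. Among those, FOXM1-KD with DMSO overlapped with control venetoclax and STL427944. Control venetoclax also overlapped with STL427944, control AraC and control DMSO, and control AraC with control DMSO.

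FOSL1, which lacks the activation domain of FOS and is best known from MAP kinase signalling, was low in all but MK-2206. In control cells it was at 1.59 and 1.43 CPM with DMSO, 3.62 and 3.71 with AraC, and 0.836 and 1.415 with venetoclax. The corresponding FOXM1-KD libraries were at 5.66 and 6.17, 11.4 and 10.2, and 19.1 and 20.7 CPM. All 3 differences were called, at 1.98 ± 0.22 with DMSO (adjusted p = 0.00665), 1.52 ± 0.27 with AraC (1.01e-07) and 4.12 ± 0.56 with venetoclax (3.26e-12). FOSL2, the most abundant member of the family in control cells, was at 140.7 and 106 CPM with DMSO against 274 and 172 CPM in FOXM1-KD cells. That difference of 0.86 ± 0.28 passed the adjusted p (0.095) but not the fold, and with AraC and venetoclax the differences were 0.17 ± 0.18 and 0.29 ± 0.37. FOSL2 overlaps an antisense gene (FOSL2-AS1) and a second gene on its own strand, and a gene lies on the strand opposite to FOSB (ERCC1), JUNB (HOOK2) and IER2 (2 non-coding genes), so reads could have been split or shared there.

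JUN, the main transactivating partner in AP-1, showed the largest knockdown difference with DMSO. FOS, FOSB and EGR1 differed more than JUN with AraC, and FOS, FOSL1 and EGR1 with venetoclax. Its control libraries with DMSO held 0.987 and 0.3296 CPM (18 and 6 counts), and its FOXM1-KD libraries 51.25 and 34.1 CPM (969 and 646 counts), 6.01 ± 0.49 apart (adjusted p = 0.0036). With AraC, JUN was at 9.93 and 10.3 CPM against 160.4 and 148 CPM in FOXM1-KD cells, 3.89 ± 0.24 apart (adjusted p = 6.45e-58). With venetoclax the control libraries split, at 11.6 and 0.634 CPM, below 66.96 and 64.1 CPM in FOXM1-KD cells, 3.43 ± 0.46 apart (adjusted p = 1.35e-12). In each treatment every FOXM1-KD library was above every control library. JUNB, a weaker activator than JUN, was at 29.8 and 29.6 CPM in control and 74.9 and 61.6 CPM in FOXM1-KD cells with DMSO, and was called in all 3 treatments at 1.21 ± 0.14 (adjusted p = 0.007), 1.33 ± 0.20 (2.55e-10) and 1.72 ± 0.39 (0.000112). JUND, the constitutive member, was at 116 and 114 CPM in control and 150.7 and 99.9 CPM in FOXM1-KD cells with DMSO, where the groups overlapped. Its differences of 0.13 ± 0.22, 0.16 ± 0.19 and -0.51 ± 0.37 were not called.

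ATF3, the stress-induced member that can form AP-1 dimers with JUN, did not follow FOS and JUN at baseline. It was at 7.78 and 3.16 CPM in FOXM1-KD cells with DMSO against 10.7 and 11.9 CPM in control cells, a difference of -1.04 ± 0.45 that was not called (adjusted p = 0.174). DESeq2, total-count scaling, a filter on low counts and the fit of all 16 libraries called it lower, at -1.05 to -1.02. With AraC it was at 73.6 and 61.5 CPM in FOXM1-KD and 15.9 and 12.98 CPM in control cells, and was called at 2.19 ± 0.24 (adjusted p = 9.33e-19). With venetoclax the difference was 0.50 ± 0.47 and not called.

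EGR1, which marks activity of the MAP kinase to serum response factor route, had 8 and 4 counts in control cells with DMSO (0.4385 and 0.2198 CPM) and 72 and 23 counts in FOXM1-KD cells (3.81 and 1.21 CPM). It was called at 2.91 ± 0.78 (adjusted p = 0.0599), and that call was lost when either control library or the first FOXM1-KD library was left out, at 1.84 to 3.48. With AraC, EGR1 was at 1.45 and 1.43 CPM in control and 35.9 and 31.4 CPM in FOXM1-KD cells, 4.50 ± 0.30 apart (adjusted p = 8.53e-50). With venetoclax it was at 0.772 and 0.5855 CPM against 40.2 and 34.75 CPM, 5.79 ± 0.57 apart (adjusted p = 8.75e-23). The FOXM1-KD libraries with either drug stood far above all control libraries outside MK-2206. IER2 was at 61.8 and 50.65 CPM in control and 71.45 and 50.8 CPM in FOXM1-KD cells with DMSO, where the groups overlapped. It was called with AraC, at 1.19 ± 0.22 (adjusted p = 2.77e-07), and reached 0.95 ± 0.39 with venetoclax (adjusted p = 0.0602), short of 2-fold. With the replicate number as a block, IER2 was called there as well, at 1.02, so that 7 genes were called.

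AraC was compared with DMSO in each population. In control cells 5 of the 10 genes were called higher and 0 lower, where 4.52% of the 22842 genes tested were called higher: FOS at 1.99 ± 0.42 (adjusted p = 0.00427), FOSL1 at 1.26 ± 0.27 (0.00453), JUN at 3.91 ± 0.32 (7.93e-07), JUNB at 1.25 ± 0.15 (2.89e-05) and EGR1 at 2.09 ± 0.46 (0.00561). FOSL2 (0.69 ± 0.15), JUND (0.59 ± 0.13) and IER2 (-0.44 ± 0.16) passed the adjusted p but not the fold. FOSB differed by 0.06 ± 0.34 in control cells (adjusted p = 0.938), less than its error. In FOXM1-KD cells 6 were called higher and 0 lower (9.03% of 23381 genes higher): FOS at 1.93 ± 0.29 (adjusted p = 3.78e-09), FOSB at 2.93 ± 0.35 (2.57e-14), JUN at 1.78 ± 0.28 (7.86e-09), JUNB at 1.36 ± 0.27 (1.31e-05), ATF3 at 3.55 ± 0.33 (1.2e-24) and EGR1 at 3.67 ± 0.36 (1.35e-21). Of all genes called in that comparison 77.8% were higher, and 87.9% with total-count scaling, which moved the median of all genes from 0.03 to 0.20. Without either AraC library, in control cells or in FOXM1-KD cells, 0 members and 0 genes in all were called, although the members' fitted values moved little, for JUN in control cells between 3.91 and 3.93.

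Whether the AraC response differed between the populations was tested with the interaction term over 8 libraries. The term was called higher in FOXM1-KD cells for FOSB (2.95 ± 0.48, adjusted p = 1.39e-07), ATF3 (3.29 ± 0.35, 7.03e-18) and IER2 (1.13 ± 0.29, 0.00393), as for 3.94% of the 26059 genes tested. For IER2 neither response was called by itself, at -0.44 ± 0.16 in control and 0.61 ± 0.27 in FOXM1-KD cells (adjusted p = 0.0735 and 0.141). ATF3 went from 7.78 and 3.16 CPM with DMSO to 73.6 and 61.5 CPM with AraC in FOXM1-KD cells, and from 10.7 and 11.9 to 15.9 and 12.98 CPM in control cells. JUN responded less (-2.05 ± 0.39, adjusted p = 1.94e-05), as did 1.19% of genes. JUN went from 51.25 and 34.1 to 160.4 and 148 CPM in FOXM1-KD cells but from 0.987 and 0.3296 to 9.93 and 10.3 CPM in control cells, so its smaller ratio belongs to the population with the higher level at both ends. EGR1 missed the threshold at 1.66 ± 0.62 (adjusted p = 0.108), and FOS and JUNB differed by 0.04 ± 0.61 and 0.20 ± 0.28. FOSB and ATF3 stayed called in all 8 fits that left out a library; IER2 was lost in 5 of them, and JUN without control AraC 2.

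Venetoclax in FOXM1-KD cells was accompanied by 6 genes called higher and 0 lower, where 1.51% of the 23717 genes tested were called higher. FOSB rose by 2.90 ± 0.40 (adjusted p = 3.16e-10) and EGR1 by 3.92 ± 0.40 (8.78e-19), and FOS (1.62 ± 0.33), FOSL1 (1.77 ± 0.38), JUNB (1.07 ± 0.32) and ATF3 (1.49 ± 0.39) were called as well. FOSB went from 4.50 and 2.16 CPM with DMSO to 25.9 and 23.3 CPM, and EGR1 from 3.81 and 1.21 CPM to 40.2 and 34.75 CPM. JUN, at 0.64 ± 0.32, was not called. The count fell to 3 without either FOXM1-KD DMSO library and to 0, as for all genes, without either FOXM1-KD venetoclax library, while EGR1 then stood at 3.80 and 4.01. AraC and venetoclax are each compared here with the same DMSO libraries, so their values side by side are not independent.

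In control cells 0 of the 10 genes were called with venetoclax and 0 with STL427944 by edgeR, and the share of all genes called higher or lower was 0.0% in both (22593 and 22672 genes tested). By unadjusted p below 0.05 there were 2 members with venetoclax (FOS and JUN) among 188 genes, and 2 with STL427944 (JUN and ATF3) among 281. DESeq2 called 0 genes for venetoclax and 1 for STL427944, which is none of the members. These comparisons rest on the libraries that stand apart. JUN was at 11.6 CPM in venetoclax 1 and 10.6 in STL427944 2, against 0.634 in venetoclax 2, 1.446 in STL427944 1, and 0.987 and 0.3296 with DMSO. JUND was at 328.5 and 246 CPM in that first pair of libraries and at 110.8 to 116 CPM in the other 4. FOS, FOSB, JUNB and IER2 were likewise highest in that pair among the 6 libraries. Without venetoclax 1, JUN's venetoclax difference went from 3.22 ± 1.22 to -0.06, and without STL427944 1 the STL427944 comparison called 2 members, JUN at 4.02 and JUND at 1.13, among 781 genes higher and 517 lower of 22095.

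**Figure D4:**
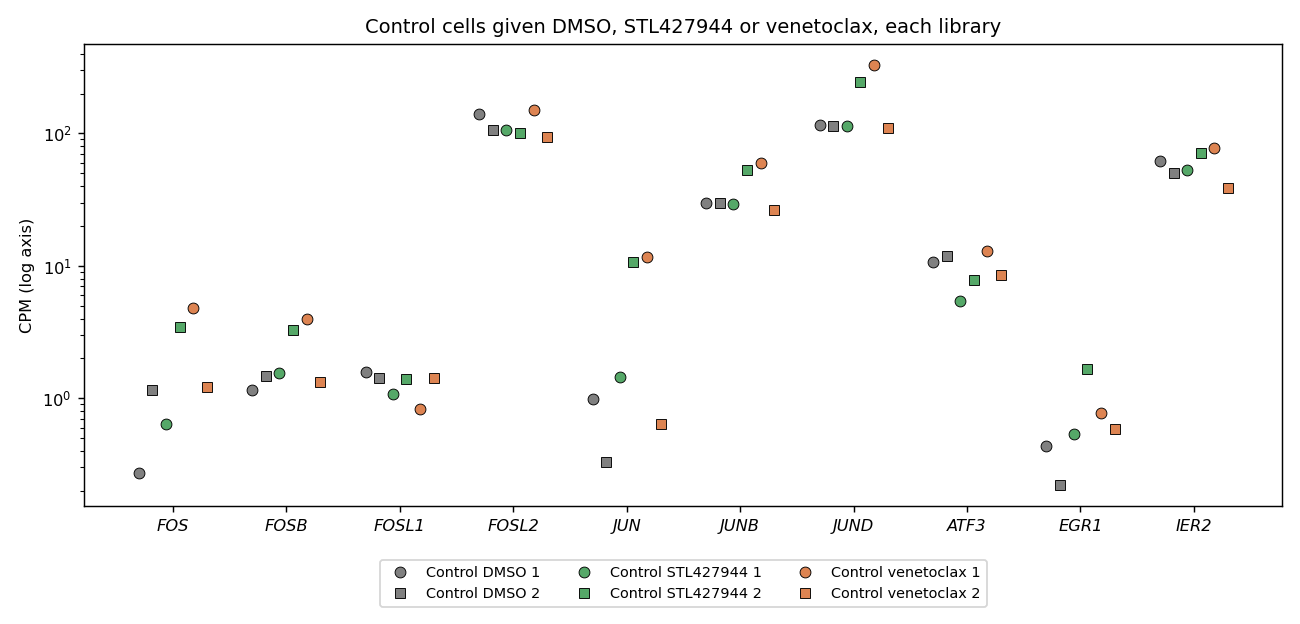
CPM on a log axis of each gene in the 6 control libraries given DMSO (grey), STL427944 (green) or venetoclax (orange); circles are replicate 1 and squares replicate 2. Venetoclax 1 and STL427944 2 lie together above the other libraries for JUN (11.6 and 10.6 CPM) and JUND.

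The venetoclax response differed between the populations for 3 genes: FOSL1 (2.16 ± 0.62, adjusted p = 0.0805) and EGR1 (2.89 ± 0.74, 0.0211) responded more in FOXM1-KD cells, where 0.481% of the 26393 genes did so, and JUN responded less (-2.56 ± 0.53, 0.000841), as did 0.261%. Without control venetoclax 1, JUN's difference turned to 0.69 and 0 members were called. The interactions of FOSL1 and EGR1 kept their sign in all fits that left out a library, at 1.85 to 2.59 and 2.28 to 3.93, but FOSL1 lost its call in all 8 of them and EGR1 in 7, and with a filter on low counts 0 members were called. FOSB, at 1.90 ± 0.61, missed the threshold (adjusted p = 0.182).

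**Figure D5:**
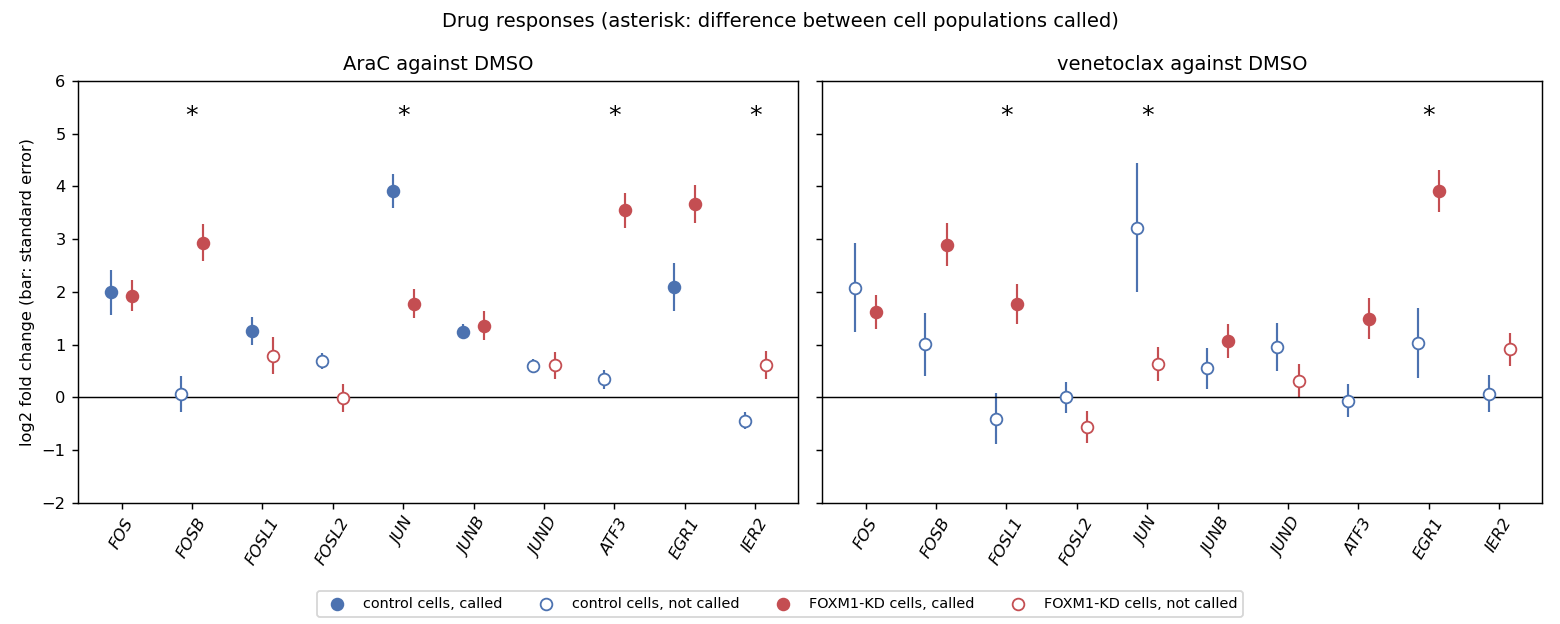
Log2 fold change of AraC (left) and venetoclax (right) against DMSO for each gene in control cells (blue) and FOXM1-KD cells (red), with standard error bars; filled points were called, and an asterisk marks genes whose response differed between the populations. With AraC, ATF3 stands at 0.34 in control and 3.55 in FOXM1-KD cells; the asterisk of JUN with venetoclax is lost without control venetoclax 1.

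Another 4 lists of related genes, also chosen with earlier results known, were read beside the members. Of 19 other immediate early genes (EGR, NR4A and IER genes, BTG2, RHOB, SGK1 and others), 18 were tested for AraC in FOXM1-KD cells and 16 were called higher, with a median log2 difference of 2.35 (2.05 with ARC, at 0 counts in the DMSO group, set to a floor of 3 counts over the group), and in control cells 4 of 17 were, with a median of 0.79. Examples in FOXM1-KD cells were BTG2 at 4.14 and SGK1 at 3.70. RHOB, a stress-induced GTPase, was called in both populations, at 2.77 (adjusted p = 3.53e-15) and 1.49 (0.000168), and its interaction of 1.36 was called (0.00818). IER5 was called in FOXM1-KD cells (1.30), and PPP1R15A, which restores protein synthesis after stress, at 1.72 (adjusted p = 4.45e-08). Venetoclax in FOXM1-KD cells brought 8 of 18 above the threshold, including SGK1 at 2.83. With DMSO, FOXM1-KD cells did not move the list one way: 4 were called higher, among them NR4A1 (118 and 20 counts against 2 and 3) and NR4A2, and 3 lower, IER3 (2 and 1 counts against 27 and 18), IER5 at -1.17 and ARC. NR4A2 had 99 and 54 counts in FOXM1-KD cells and 0 in both control libraries, at least 49.1-fold higher against the floor of 3 counts over the group, and ARC had 0 in both FOXM1-KD libraries and 59 and 54 in control cells, at least 39.1-fold lower. With AraC 14 were higher and 1 lower, and with venetoclax 10 and 1. Of all genes, AraC called 9.03% higher in FOXM1-KD and 4.52% in control cells, and venetoclax 1.51% in FOXM1-KD cells. FOXM1-KD against control cells called 11.3%, 15.2% and 10.8% of all genes higher with DMSO, AraC and venetoclax, and 3198, 3460 and 3367 genes lower. Whether the list departs from these shares was not tested.

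The other AP-1 subunits and partners were 12 genes (BATF, MAF, JDP2, ATF2 and others). FOXM1-KD against control cells called 0 of 12 higher and 2 lower with DMSO (BATF and JDP2), 2 and 1 with AraC, and 0 and 1 with venetoclax. Over all genes, 2634 were called higher and 3198 lower of 23274 with DMSO. With AraC these were 3757 and 3460 of 24653, and with venetoclax 2689 and 3367 of 24947. Whether the list departs from these shares was not tested. MAFF, a small MAF protein induced by stress, was called for AraC in FOXM1-KD cells (2.40, adjusted p = 3.34e-09) with an interaction of 1.84 (0.00203). MAFF was at 1.15 to 18.8 CPM outside MK-2206, which brought it to 543 and 354 CPM. MAFG and ATF2, more abundant at 64.2 CPM or more in every library, were called in none of the tested comparisons. Of the kinases and promoter factors upstream of these genes (24 genes), 2 or 3 were called higher and 2 to 5 lower in the 3 comparisons of FOXM1-KD with control cells. These counts stand beside the same shares of all genes, and whether they depart from them was not tested. For AraC, venetoclax and STL427944, 0 were called higher and at most 1 lower. Of all genes, 4.52% were called higher with AraC in control cells, and 9.03% with AraC and 1.51% with venetoclax in FOXM1-KD cells. RPS6KA1, a MAP kinase target that acts on FOS, was called higher in FOXM1-KD cells in all 3 treatments, at 1.22, 1.18 and 1.80. MAPK14, which encodes a p38 stress kinase, was called lower with DMSO (-1.44, adjusted p = 0.00342). ELK1, a promoter factor of the same list, was called lower in FOXM1-KD cells in all 3 treatments, at -2.93, -3.55 and -3.06 with DMSO, AraC and venetoclax.

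Textbook AP-1 targets (22 genes) were called higher in 6 of 21 tested with DMSO, 11 of 20 with AraC and 9 of 20 with venetoclax when FOXM1-KD was compared with control cells, and lower in 1, 2 and 3. AraC called 7 of 19 higher in control and 12 of 20 in FOXM1-KD cells, and 0 lower in both, while venetoclax in FOXM1-KD cells called 6 of 21 higher and 2 lower, CD44 among them at -1.02. Of all genes, FOXM1-KD against control cells called 11.3%, 15.2% and 10.8% higher with DMSO, AraC and venetoclax. AraC called 4.52% higher in control and 9.03% in FOXM1-KD cells, and venetoclax 1.51% in FOXM1-KD cells. Whether the targets depart from these shares was not tested. CXCL8, a neutrophil chemokine, was at 0.603 and 0.4945 CPM in control cells with DMSO, at 34.8 and 8.17 CPM in FOXM1-KD cells, and at 303 and 386 CPM in FOXM1-KD cells with AraC. Its knockdown differences were 5.28, 7.77 and 5.56 with DMSO, AraC and venetoclax, all called. VIM, the intermediate filament vimentin, was likewise called in all 3, at 6.82, 5.47 and 5.81, while CD44, an adhesion receptor, was called lower with AraC (-1.56) and venetoclax (-2.16). For MK-2206, which was not tested, 19 of 19 immediate early genes and 18 of 22 targets were fitted at least 2-fold higher and 0 and 1 (IL1B) at least 2-fold lower, beside 50.5% of all genes higher. Of the AP-1 subunits and partners 5 of 12 were higher and 1 lower, and of the kinases and promoter factors 2 of 24 were higher and 8 lower, with a median of -0.63. Of all 28905 genes fitted, 7366 were at least 2-fold lower.

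Likeness of pattern was measured by Pearson's r of log2(CPM + 1) over the 16 libraries among 12224 protein-coding genes with a mean CPM of at least 1, members left out. The genes most like FOSB were EGLN3 (0.993), SNAI1 (0.990), SLIT2 (0.989), SGK1 (0.988) and GADD45B (0.987). EGLN3, an oxygen-sensing prolyl hydroxylase, was at a mean of 108 CPM with MK-2206, 5.08 in FOXM1-KD cells with AraC and 5.86 with venetoclax, and had 0 counts in control cells with DMSO, AraC or venetoclax. Those most like FOS were ARHGAP26 (0.987), GOLGA3 (0.983), EPHX1 (0.976), HBEGF (0.976) and DLX2 (0.975). HBEGF, a ligand of the EGF receptor, was at 0.192 CPM in control and 5.36 CPM in FOXM1-KD cells with DMSO, and at 34.1 CPM in FOXM1-KD cells with AraC. Libraries of 1 condition share its treatment and MK-2206 sets much of r. By Spearman's rho 0 of the 5 genes stayed among the top 5 for either gene, and over the 8 condition means 4 stayed for FOSB and 2 for FOS.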

How the data were processed

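RNA was purified from KG-1 cultures and sequenced. The authors deposited counts per gene without normalization, made by alignment to hg38 with STAR and counting with featureCounts, per the labels and the study's methods, which give no versions used here. The study's methods name a stranded CORALL kit with ribosomal RNA depletion and the labels another stranded kit, and neither says whether molecular identifiers were used in counting, so counts were taken as reads.

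Of 43836 genes, 43177 matched GENCODE release 44, whose exons gave the lengths. For each comparison, its 4 libraries (8 for an interaction) entered a quasi-likelihood fit in edgeR 4.0.16 under R 4.3.3 with TMM scaling. Every gene with a count of 1 or more in total was tested, and p-values were adjusted by Benjamini and Hochberg. The fitting steps were tried on simulated counts for FOXM1-KD against control cells with AraC and for the AraC interaction. The simulated spread was a fixed value not taken from these libraries, so the trial does not show how reliable the calls are here. CPM used all 16 libraries. With 2 libraries per group, p-values measure the spread between these cultures only. The members and lists were chosen with earlier results of these data known. Named were all members, FOXM1, the 3 genes of each list with the highest mean CPM over all 16 libraries (a mean that the 2 MK-2206 libraries carry for RHOB, MAFF and CXCL8), the 5 genes most like FOSB and FOS, and, after their values were seen, further list members as examples. Same-numbered MK-2206, AraC and venetoclax libraries of the 5 groups whose labels carry numbers deviated together in all 10 pairs of groups (r of 0.43 to 0.703), so the numbers pair them, while the DMSO and STL427944 labels carry no numbers. Alternatives were DESeq2 1.42.0, other scalings, a filter (filterByExpr), a prior count of 2, an adjusted p below 0.05, a replicate block, a fit of all 16 libraries and leaving out each library. Tables were made with pandas 2.3.3 in Python 3.11.15 and plots with matplotlib 3.10.9.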

Additional observations from a re-analysis of the deposited data

Results flagged for a closer look

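A drug response that differed between FOXM1-KD and control cells by the interaction term (edgeR) marked 7 results. For AraC these were FOSB (log2 difference of responses 2.95, adjusted p = 1.39e-07), ATF3 (3.29, 7.03e-18), IER2 (1.13, 0.00393) and JUN (-2.05, 1.94e-05). For venetoclax they were FOSL1 (2.16, 0.0805), EGR1 (2.89, 0.0211) and JUN (-2.56, 0.000841). The JUN value for venetoclax turns to 0.69 without control venetoclax 1, in which JUN had 181 counts against 13 in the other replicate, and the part of that library's other differences in the result was not tested. The IER2 value ran from 0.77 to 1.29 in the fits without a library that lost its call.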

How the results depend on the processing

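The counts of called genes kept within 1.5 times of the value reported, or at 0, under most alternatives; the exceptions follow, and the cause was not tested. A fit of all 16 libraries called 2 members for venetoclax in control cells (FOS and JUN), among 29 genes higher and 5 lower over all, and 1 for STL427944 (JUN), among 70 and 19, in place of 0. The venetoclax interaction called 3 genes, and 1 by DESeq2, 0 with the filter on low counts and 5 in the fit of all 16 libraries. FOXM1-KD against control cells with DMSO called 5 genes, and 7 by DESeq2, with total counts, with the filter or with all 16 libraries. Of 110 log2 fold changes, 8 reversed in other settings and 39 when a library was left out. For FOSL2, AraC in FOXM1-KD cells gave 0.15 with total counts and 0.07 with all 16 libraries, and venetoclax in control cells gave 0.01 by DESeq2 and with its size factors, 0.04 with total counts and 0.02 with the filter. For FOS, the AraC interaction gave -0.04 by DESeq2 and with its size factors. With the replicate number as a block, FOXM1-KD against control cells called 8 genes with AraC, as before, and 7 with venetoclax (IER2 added), and the block changed no other call.

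Leaving out 1 library, which leaves an arm with a lone sample assumed to vary like the others, called 4 to 7 genes for FOXM1-KD against control cells with DMSO, 7 to 8 with AraC and 6 to 7 with venetoclax. The ranges were 0 to 5 for AraC in control and 0 to 6 in FOXM1-KD cells, 0 to 0 for venetoclax in control and 0 to 3 in FOXM1-KD cells, 0 to 2 for STL427944, 2 to 5 for the AraC interaction and 0 to 4 for the venetoclax interaction. Small differences changed sign. For FOXM1-KD against control cells the ranges were -0.22 to 0.39 (JUND) and -0.17 to 0.34 (IER2) with DMSO, -0.03 to 0.33 (JUND) with AraC, and -0.02 to 0.66 (FOSL2) and -1.10 to 0.47 (JUND) with venetoclax. For AraC they were -0.11 to 0.25 (FOSB) in control and -0.30 to 0.34 (FOSL2) in FOXM1-KD cells. For venetoclax in control cells they were -0.00 to 1.63 (FOSB), -0.40 to 0.32 (FOSL2), -0.06 to 4.22 (JUN), -0.18 to 1.03 (JUNB), -0.06 to 1.55 (JUND), -0.40 to 0.22 (ATF3) and -0.55 to 0.51 (IER2), and in FOXM1-KD cells -0.11 to 0.65 (JUND). For STL427944 they were -0.16 to 2.87 (FOS), -0.03 to 0.86 (JUNB), -0.02 to 1.13 (JUND) and -0.11 to 0.36 (IER2). For the AraC interaction they were -1.33 to 0.72 (FOS), -0.08 to 0.39 (JUNB) and -0.30 to 0.43 (JUND), and for the venetoclax interaction -1.80 to 0.85 (FOS), -3.55 to 0.69 (JUN) and -1.21 to 0.37 (JUND). The low counts of FOS, JUN and EGR1 in control cells (4 to 21 with DMSO) limit the precision of their fold changes, and the MK-2206 libraries are the least deep.

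Of the lists, textbook AP-1 targets called 7 for AraC in control cells and 4 by DESeq2, and other immediate early genes 8 for venetoclax in FOXM1-KD cells and 5 by DESeq2. AraC in control cells called 1032 genes higher and 495 lower over all genes, and 650 and 207 in the fit of all 16 libraries.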
